A study of Saccharomyces cerevisiae with 4 samples.

Results

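The genes described here are 10 genes of Saccharomyces cerevisiae that move acetyl units between cell compartments or make and use acetyl-CoA, out of 5656 genes read on probe sets of their own. They are CIT2, the carnitine acetyltransferase genes YAT1, YAT2 and CAT2, the transport genes CRC1, AGP2 and ATO2, the acetyl-CoA synthetase genes ACS1 and ACS2, and the CoA-transferase gene ACH1. They were picked as a pathway after results of the same comparison were known: the set was chosen by the signal differences between the strains on these 4 arrays, in which YAT2 was among the genes furthest apart. Their differences between the strains are therefore given as a description, without p-values. Each of the 10 was read on 1 probe set that the platform annotation pairs with that gene alone. Of these, 9 passed the filter on dim signals, and AGP2 did not.

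RNA came from 2 wild-type cultures and 2 cultures of a mutant strain, H3 K4,36,79R, whose histone H3 has arginine in place of lysine at positions 4, 36 and 79. All cultures grew in selective galactose medium and were taken at 0 h, at an OD600 of 0.5 to 0.7, before any move to glucose. The study's later glucose step shuts off a wild-type H3 gene and leaves the mutant copy as the only source of H3. At 0 h that gene had not been shut off, so by this design the mutant cultures could still make wild-type H3. The labels give no further alleles of the strains. URA3, a common selection marker, had deposited signals of 14.1 and 14.6 in the wild-type pair and 594 and 643 in the mutant pair, and an effect of H3 cannot be told apart from that of other differences between the strains. GAL1, the galactokinase gene that galactose induces, gave signals of 1454 and 1424 in the wild-type pair and 1058 and 1263 in the mutant pair. Its strain difference did not pass the test (-0.21 on the log2 scale, limma adjusted p = 0.829). The galactose genes GAL7 (-0.33), GAL10 (-0.37) and GAL2 (-0.10) were also lower in the mutant, and none of them passed. The design text speaks of replicate cultures. With 2 per group, an exact permutation test of a single gene cannot go below p = 0.333.

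Acetyl-CoA does not cross the membranes of mitochondria and peroxisomes. Yeast moves its acetyl group either on carnitine, in the carnitine shuttle, or after building it into citrate. Carnitine acetyltransferases pass the acetyl group between CoA and carnitine, the carrier Crc1 takes acetylcarnitine into mitochondria, and Agp2 at the plasma membrane is needed for carnitine uptake, since baker's yeast does not make carnitine itself. Cit2 is the peroxisomal citrate synthase that joins acetyl-CoA to oxaloacetate at the entry of the glyoxylate cycle. Its gene is the classic target of retrograde signalling from mitochondria through Rtg1 and Rtg3. Acetyl-CoA is also the donor for histone acetylation, and in yeast Acs2 is a main source of it for that use.

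Among the 9 tested genes of the pathway, CIT2, YAT2, ATO2 and CRC1 had the highest signal in the mutant relative to the wild type. The remaining 5 tested genes differed by -0.27 to 0.22. Differences are mutant minus wild type, in log2 of the deposited signal plus a pseudocount of 2, after each array was centred on the median of all tested genes. SEs come from the limma fit across all 4576 tested genes, and SDs are over n = 2 arrays per group. Of the 9 tested members 7 had a positive and 2 a negative difference, with a median of 0.22. Over all tested genes 48.4% were positive and the median was -0.01. None of the 9 passed an adjusted p of 0.05 in limma. Over all genes 2 passed it, URA3 and SIP18, which is 0.0437% of those tested. In 6 of the 9 members the 2 mutant values lay outside the 2 wild-type values on one side, 5 above and 1 below. Over all tested genes this held for 39.4%, 21% above and 18.5% below.

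**Figure D1:**
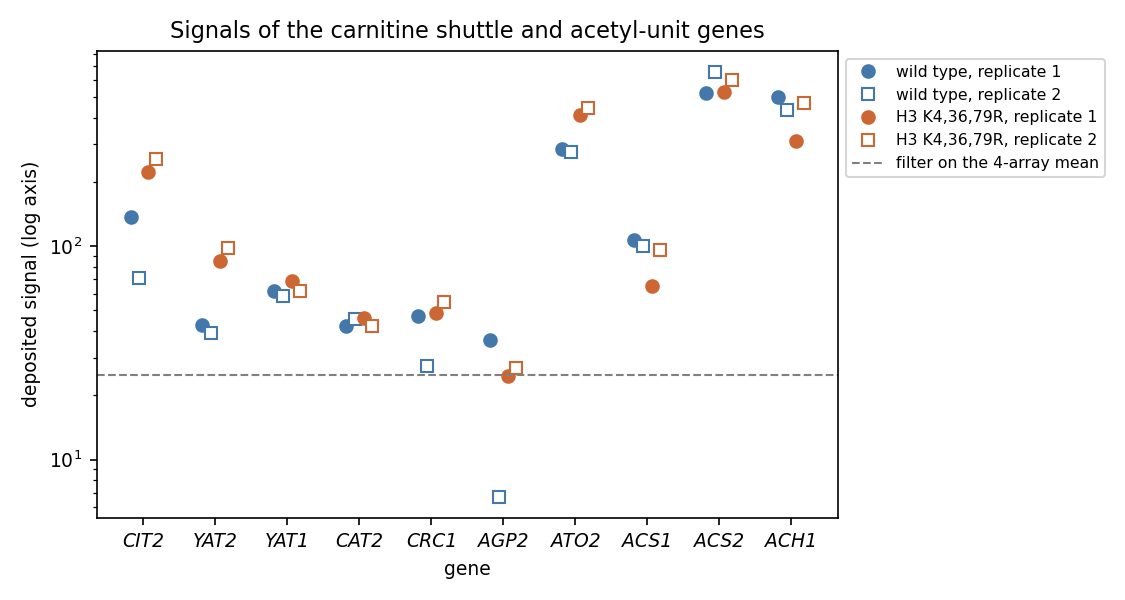
Deposited signal of each gene on a log axis, with 1 point per array and the filter on the mean of 4 arrays as a dashed line. In CIT2, YAT2 and ATO2 both mutant points stand clear of both wild-type points, and the second wild-type culture is the lowest point of 6 genes, by the widest margins in CIT2, CRC1 and AGP2.

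CIT2 (YCR005C) had the highest difference of the group. The signal as deposited was 136 and 71.1 in the wild-type pair and 224 and 257 in the mutant pair. Both mutant cultures lay above both wild-type cultures, and the 2 wild-type cultures were themselves far apart. On the centred log2 scale the wild type stood at -0.03 ± 0.60 and the mutant at 1.35 ± 0.05 (SD, n = 2 each), a difference of 1.37 (SE 0.26, 2.59-fold). The lower mutant culture was 0.91 above the higher wild-type culture. The difference was 1.80 without wild-type replicate 1 but 0.95 without replicate 2, so its size turned on which wild-type culture was kept. It ranked 7 from the top among the 4576 tested genes.

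The 3 carnitine acetyltransferase genes did not share one pattern. YAT2 (YER024W) encodes the cytosolic enzyme, and its signal was 42.7 and 39.3 in the wild-type pair against 85.4 and 98.3 in the mutant pair. The groups were well apart, and the replicates of each lay close together. The centred log2 values were -1.25 ± 0.03 and -0.02 ± 0.05 (SD, n = 2 each), a difference of 1.23 (SE 0.19, 2.34-fold), the 10th highest of all tested genes. The wild-type cultures were 0.04 apart in YAT2 and the mutant cultures 0.06, against medians over all genes of 0.28 and 0.14. The YAT2 difference ranged only from 1.20 to 1.26 when any 1 array was left out, whereas that of CIT2 ranged from 0.95 to 1.80. With 2 arrays per group these ranges follow from the replicate gaps and are no separate evidence.

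YAT1 (YAR035W), whose enzyme sits on the outer mitochondrial membrane, gave signals of 61.8 and 58.3 in the wild-type pair and 68.8 and 61.4 in the mutant pair. After centring both mutant values were above both wild-type values, by a margin of 0.07. The difference was 0.22 (SE 0.20), and it was 0.07 without mutant replicate 1 and 0.36 without mutant replicate 2. CAT2 (YML042W), which encodes the enzyme found in both mitochondria and peroxisomes, gave signals of 42.1 and 45.5 against 46.1 and 42.4. Its groups overlapped, with a difference of 0.12 (SE 0.21) and a 95% interval from -0.37 to 0.61. That interval does not show that the strains were alike in CAT2.

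Among the transport genes, ATO2 (YNR002C) had the tightest replicates. It encodes a plasma membrane protein of the acetate and ammonia transporter family, and its signal was 285 and 278 in the wild-type pair and 411 and 446 in the mutant pair. Both mutant cultures lay above both wild-type cultures, with replicate gaps of 0.04 and 0.02 on the centred log2 scale. The difference was 0.71 (SE 0.15, 1.63-fold), and it stayed between 0.69 and 0.73 without any 1 array. CRC1 (YOR100C), the mitochondrial carnitine carrier gene, gave signals of 47.2 and 27.5 in the wild-type pair and 48.8 and 54.8 in the mutant pair. The mutant cultures were above the wild type, but wild-type replicate 1 lay only 0.26 below the nearer of them. The CRC1 difference of 0.60 (SE 0.26, 1.52-fold) was 0.94 without wild-type replicate 1 but 0.27 without replicate 2.

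AGP2 (YBR132C) was the member left out of the fit. Agp2 is a plasma membrane protein needed for carnitine uptake that also regulates polyamine transport. Its signal was 36.3 and 6.7 in the wild-type pair and 24.7 and 26.8 in the mutant pair, a mean of 23.6 against a filter value of 24.9. The 2 wild-type cultures lay on either side of both mutant cultures, so the groups overlapped. The wild-type cultures were 2.07 apart on the centred log2 scale, and no fold is given for this gene.

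**Figure D2:**
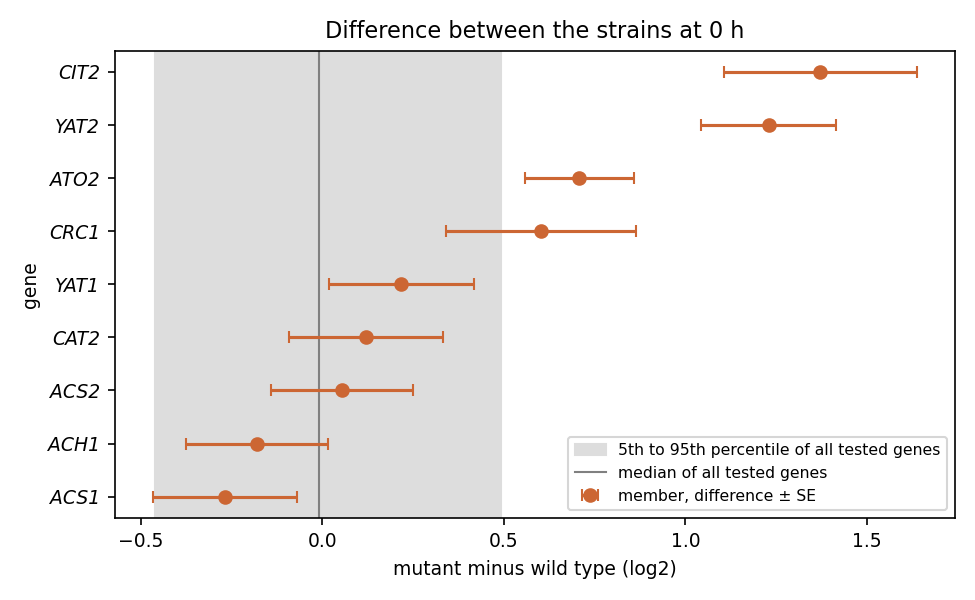
Difference between the strains for the 9 tested genes, in log2, with bars of 1 SE, against the span from the 5th to the 95th percentile of all tested genes (-0.46 to 0.49). CIT2, YAT2, ATO2 and CRC1 lie to the right of that span, and YAT1, CAT2, ACS2, ACH1 and ACS1 lie inside it.

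The genes that make acetyl-CoA from acetate had small differences, of 0.05 for ACS2 and -0.27 for ACS1. ACS2 (YLR153C), the acetyl-CoA synthetase gene that is essential on glucose, gave signals of 520 and 656 in the wild-type pair and 529 and 601 in the mutant pair. Both mutant signals fell between the wild-type signals, and the difference was 0.05 (SE 0.20, 95% interval -0.40 to 0.51). Its sign turned without centring (-0.05) and without wild-type replicate 1 (-0.15). ACS1 (YAL054C), the synthetase gene that glucose represses, gave signals of 107 and 100 against 65.3 and 96.2. It was the only tested member with both mutant values below both wild-type values, and the margin was 0.05. The ACS1 difference was -0.27 (SE 0.20), with -0.06 without mutant replicate 1 and -0.47 without mutant replicate 2.

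ACH1 (YBL015W) encodes a mitochondrial enzyme that passes CoA from succinyl-CoA to acetate. Its signal was 500 and 436 in the wild-type pair and 312 and 469 in the mutant pair, with overlapping groups and a difference of -0.18 (SE 0.20). Without mutant replicate 1 the sign turned (0.05). ACS1 and ACH1 had like profiles over the 4 arrays, at a distance of 0.12 (Euclidean, log2 units, each gene's mean taken off), and in both the low point was mutant replicate 1. YAT2 and ATO2 were at a distance of 0.53 from each other, and YAT2 and CIT2 at 0.59.

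Which culture was low differed between the members. On the centred scale wild-type replicate 1 was above replicate 2 in 6 of the 9 tested members and mutant replicate 1 above replicate 2 in 3 of them. The SD of replicate differences over all genes was 0.43 between the wild-type arrays and 0.27 between the mutant arrays. CIT2 (0.85), CRC1 (0.67) and ACS2 (0.41) had wild-type gaps above the median of 0.28 over all tested genes, and so did AGP2. In the mutant ACH1 (0.45), ACS1 (0.41), YAT1 (0.29) and CAT2 (0.25) had gaps above the median of 0.14.

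Ratios between related genes on the same array do not depend on how the arrays are centred. Only the shift of such a ratio between arrays is read, since the probe sets of different genes are not on one scale. The 6 pairs compared were chosen after the values were seen. Each shift between the strains is the first gene's difference minus the second's. It restates the differences of the single genes and gives them no further support. Relative to its wild-type mean, the log2 ratio of YAT2 to YAT1 was 0.02 and -0.02 in the wild-type pair and 0.83 and 1.19 in the mutant pair, a shift of 1.01 (2.02-fold). The ratio of YAT2 to CAT2 shifted by 1.11 (2.16-fold), from 0.11 and -0.11 to 0.95 and 1.27. For YAT1 to CAT2 the shift was 0.10, and the groups overlapped.

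CIT2 was set against CIT1, its mitochondrial counterpart, which gave signals of 1154 and 1355 in the wild-type pair and 1250 and 1254 in the mutant pair. The log2 ratio of CIT2 to CIT1 was read relative to its wild-type mean. It was 0.58 and -0.58 in the wild-type pair and 1.17 and 1.36 in the mutant pair, a shift of 1.26 (2.40-fold). Both mutant ratios lay above both wild-type ratios. Taken against the higher wild-type ratio alone, the mutant mean was 1.61-fold higher. The ratio of ATO2 to its relative ATO3 shifted by 0.29 (1.22-fold), without overlap, and was 1.09-fold against the higher wild-type ratio alone. That of ACS1 to ACS2 shifted by -0.32, with overlapping groups.

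**Figure D3:**
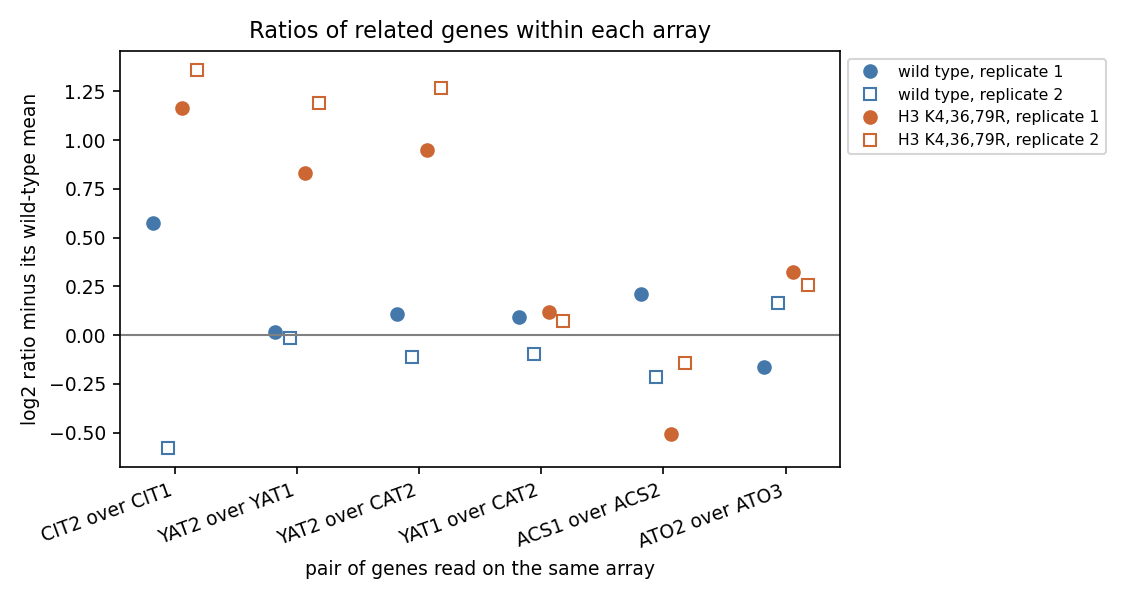
Log2 ratio of 2 related genes on the same array, minus the mean ratio of the wild-type arrays, with 1 point per array. The 3 pairs with CIT2 or YAT2 on top shift by 1.01 to 1.26, while YAT1 over CAT2 shifts by 0.10. Each shift is the first gene's difference minus the second's.

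The genes with the profile most like CIT2 over the 4 arrays were UIP4, a nuclear envelope protein gene, at a distance of 0.37, SNZ1, a vitamin B6 synthesis gene, at 0.39, and the tRNA gene YNCK0019W at 0.43. SNZ1 gave signals of 114 and 75 in the wild-type pair and 207 and 187 in the mutant pair, with wild-type replicate 2 lowest as in CIT2. The genes nearest to ACS1, the member with the lowest difference, were MRS1 (0.03), DEG1 (0.03) and ATP2 (0.05). All 3 had their low point in mutant replicate 1.

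The 86 companion genes, in 8 lists of steps and regulators around these members, were also counted. Of these 76 were tested, and 0 passed the adjusted p of 0.05 in limma in either direction, against 0.0437% of all tested genes. At an unadjusted p under 0.05 there were 12, 8 higher and 4 lower, against 8.52% of all tested genes, 4.92% higher and 3.61% lower. Most of the companion differences given below turned on single arrays. Of the 31 genes named for the ends of their lists, 26 moved by over 1.5 times or changed sign when 1 array or another was left out, and the 5 that did not were RTG3, MDH2, ALD3, JEN1 and SAM3.

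Retrograde signalling genes and their targets other than CIT2 had 0 of 11 tested genes past the threshold, with 8 higher and 3 lower and a median of 0.17. That median was 0.06 without centring and 0.10 without wild-type replicate 1, when 6 were higher and 5 lower. The target gene DLD3, a lactate dehydrogenase gene that like CIT2 responds to Rtg1 and Rtg3, gave signals of 66.5 and 43.4 against 65.3 and 57.8, and its groups overlapped (0.29, SE 0.24). MKS1, a negative regulator of the pathway, was highest (0.45) and RTG3, a transcription factor gene, next (0.31). IDH1, a subunit of mitochondrial isocitrate dehydrogenase, was lowest (-0.23), before LST8 (-0.04). IDH1 was at 0.05 without mutant replicate 2. RTG1 was too dim to be tested (7.1 to 12.2).

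In the glyoxylate cycle and malate shuttle 0 of 10 tested genes passed, with 6 higher and 4 lower and a median of 0.15. That median was 0.05 without centring and 0.03 without wild-type replicate 1, when 5 were higher and 5 lower. ICL1, isocitrate lyase, gave signals of 100 and 150 in the wild-type pair and 184 and 201 in the mutant pair (0.75, SE 0.22, limma adjusted p = 0.452). MLS1, malate synthase, gave signals of 180 and 232 against 274 and 307 (0.61, SE 0.18, limma adjusted p = 0.457). Both thus had mutant signals above both wild-type signals, as CIT2 did, and neither they nor CIT2 passed the test. Over all tested genes 21% had both mutant values above both wild-type values. The lower wild-type culture was replicate 1 in ICL1 and MLS1 but replicate 2 in CIT2. Without wild-type replicate 1 ICL1 and MLS1 were at 0.43 and 0.39. At the other end stood MDH2, cytosolic malate dehydrogenase, at 698 and 1007 against 324 and 373 (-1.16, SE 0.22, limma adjusted p = 0.167), and the dicarboxylate carrier gene DIC1 (-0.19). MDH2 passed with quantile normalisation.

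Peroxisomal beta-oxidation, which feeds acetyl-CoA to Cit2 and Cat2, had 0 of 10 tested genes past the threshold, 2 higher and 8 lower, with a median of -0.19. The lowest were the thioesterase gene TES1 (-0.56) and the acyl-CoA synthetase gene FAA4 (-0.53), and the highest were PEX11 (0.22) and FAA1 (0.10). FAA1 turned negative without centring (-0.01), and also when wild-type replicate 2 (-0.32) or mutant replicate 1 (-0.37) was left out. POX1, PXA1, PXA2, IDP3, DCI1 and CTA1 lay below the filter. The median stayed negative under each scaling and without any 1 array, between -0.41 when wild-type replicate 1 was left out and -0.19 when replicate 2 was.

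Among genes that lead from pyruvate and acetaldehyde to acetate or acetyl-CoA, 0 of 13 passed, 5 higher and 8 lower. The aldehyde dehydrogenase genes ALD3 (1.51, limma adjusted p = 0.0552) and ALD2 (0.45) were highest, and PDC6 (-0.79) and ALD5 (-0.45) lowest. ALD3 gave signals of 26.3 and 25.1 against 71.4 and 71.5, and it passed without centring, with quantile normalisation and with cyclic loess. Its wild-type signals were close to the filter value of 24.9. The size of its difference moved with the pseudocount, from 1.31 with a pseudocount of 9 to 1.58 with none. The list's median was -0.06, and it was 0.08 without wild-type replicate 2. Genes that use acetyl-CoA in synthesis had 0 of 12 past the threshold and a median of 0.09, which was -0.01 without centring, between ERG13 (0.34) and FAS1 (0.34) and, lowest, FAS2 (-0.11) and ERG10 (-0.08). FAS1 was at -0.14 with the mean of its probe sets and FAS2 at 0.09 without wild-type replicate 2. ERG10 turned positive when wild-type replicate 2 (0.08) or mutant replicate 1 (0.02) was left out, and with quantile normalisation.

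The 3 tested genes of acetate and monocarboxylate transport were ATO3 (0.42), the lactate and pyruvate permease gene JEN1 (0.27) and the glycerol channel gene FPS1 (0.17), and 0 passed. ADY2, the acetate transporter gene of the same family as ATO2, was too dim to be tested (7.47 to 12.1). Regulators of carbon source genes had 0 of 12 past the threshold and a median of 0.05, which was -0.06 without centring. REG1 (0.32) and ADR1 (0.26) were highest, and the oleate factor gene OAF1 (-0.38) and RDS2 (-0.31) lowest. ADR1 was at -0.03 without wild-type replicate 2. CAT8, whose factor activates ACS1 and glyoxylate genes when glucose is absent, was at 64.5 and 55.3 against 57.8 and 57.4.

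In the list of Agp2 regulation and polyamine transport, 0 of 7 tested genes passed, and all 7 had positive differences, with a median of 0.39. Over all tested genes 48.4% were positive and the median was -0.01. Like the other lists, this one was chosen with earlier results of these data known. The polyamine transporter gene TPO5 (0.51) and SAM3 (0.46) were highest, and the kinase gene SKY1 (0.33) and the urea and polyamine permease gene DUR3 (0.29) lowest. The median stayed positive under each scaling and without any 1 array, from 0.28 without centring to 0.51 without mutant replicate 2. SKY1 was at -0.20 without wild-type replicate 2.

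**Figure D4:**
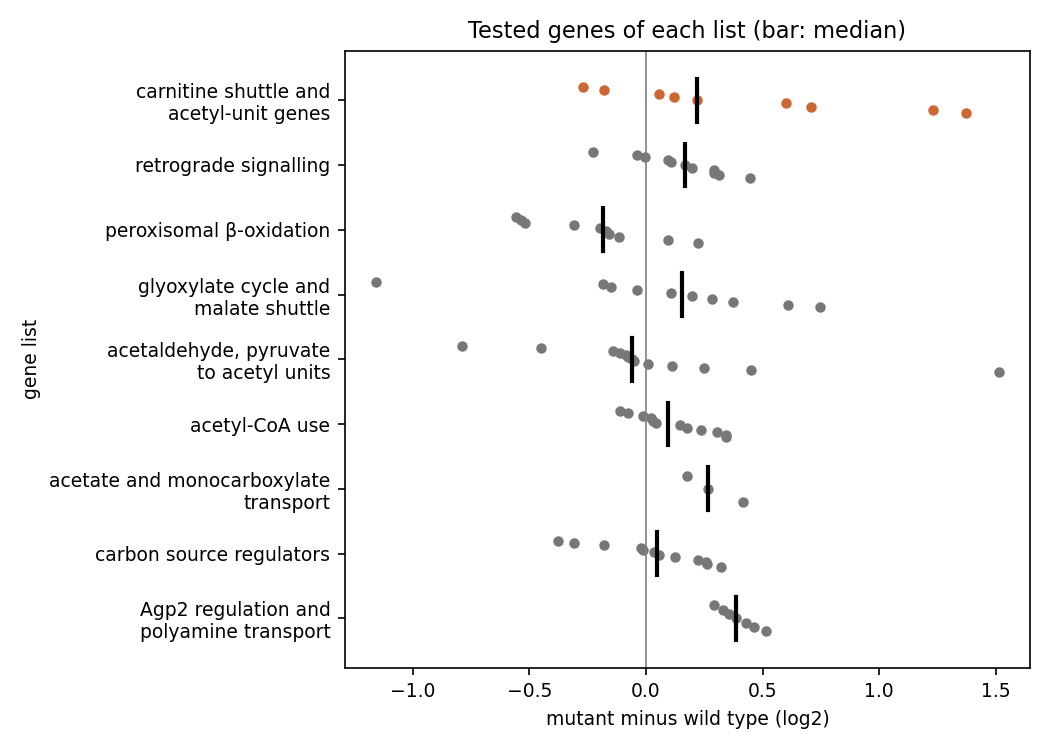
Difference between the strains in log2 for each tested gene of the 9 tested members and of the 8 companion lists, with 1 point per gene and the list's median as a bar. CIT2 and YAT2 are the 2 highest of the members, MDH2 (-1.16) is the lowest gene shown and ALD3 (1.51) the highest.

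Over 14 alternative settings CIT2 ranged from 0.95 to 1.80, YAT2 from 1.11 to 1.27, ATO2 from 0.60 to 0.73 and CRC1 from 0.27 to 0.94. These 4 had the same sign in each setting in which they were tested, as did YAT1 and ACS1. CAT2 took the opposite sign in 1 setting, ACH1 in 1 and ACS2 in 2.

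**Figure D5:**
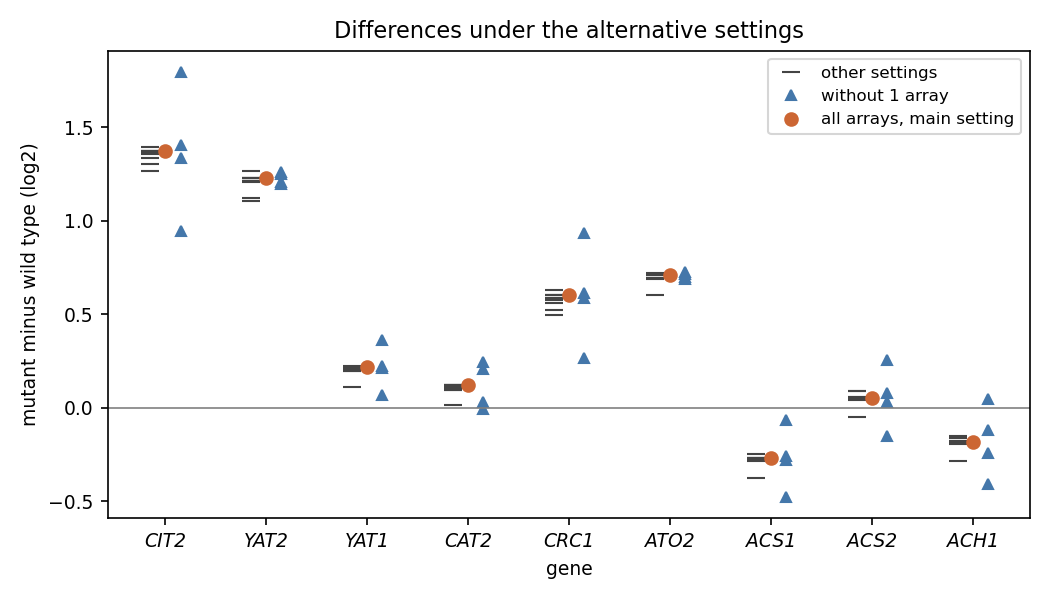
Difference between the strains for each tested gene with all arrays, without any 1 array, and under the other settings, in log2. The arrays left out spread CIT2 (0.95 to 1.80) and CRC1 (0.27 to 0.94) far more than YAT2 (1.20 to 1.26) and ATO2 (0.69 to 0.73).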

How the data were processed

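The authors deposited intensities on a linear scale, with 1 signal for each probe set, made with MAS5 per the submitters' processing notes, whose version and scaling target the labels do not name. The wild-type signals are written with 1 decimal and the mutant signals with more. Whether the mutant arrays were scaled differently from the wild-type arrays was not tested, and the setting without centring would keep such a difference. Of 9335 probe sets, the platform annotation pairs 6504 with 1 gene, and all 5656 such genes matched RefSeq (R64) by gene ID. A pseudocount of 2 was added before log2. The dimmest 25% of probe sets by mean signal were left out, the brightest probe set of each gene was kept, and each array was centred on its median over 4576 genes. Groups, taken from the sample titles, were set against each other in limma 3.58.1 (R 4.3.3, lmFit, eBayes with trend, two-sided, Benjamini-Hochberg over all tested genes). The fit was tried on simulated data whose changes were larger than any member's difference. That trial does not bear on differences of the members' size. Figures were drawn with matplotlib 3.10.9. Having only 2 arrays in a group limits precision, and p-values measure only the spread between these cultures.

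The members and lists were chosen with earlier results of these data known. Named genes are all members and the 2 highest and 2 lowest tested genes of each companion list. They also take in the 3 genes nearest in profile to the highest and the lowest member, and the genes past the threshold. GAL1, GAL7, GAL10 and GAL2 were read as a check of growth in galactose. DLD3, CIT1, CAT8 and genes below the filter were added after their values were seen. Alternatives covered the scaling, pseudocount, filter, probe sets, variance model, a replicate block and leaving out each array.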

Additional observations from a re-analysis of the deposited data

How the results depend on the processing

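The number of genes past the threshold was 2 and depended on the setting. It was 11 without centring, 9 with quantile normalisation, 8 with cyclic loess, 7 with the lowest 50% left out, 9 with the mean of all probe sets, 1 without an intensity trend and 32 with a replicate block; without any 1 array it ranged from 1 to 21. Companion genes past the threshold numbered 0, but 1 without centring, 2 with quantile normalisation, 1 with cyclic loess and 1 with the mean of all probe sets, and from 0 to 1 without any 1 array. With all arrays ALD3 passed without centring, with quantile normalisation, with cyclic loess and with the mean of all probe sets. MDH2 passed with quantile normalisation. Members past the threshold numbered 0 in each setting with all arrays and no replicate block. CIT2 differed by 1.41 without mutant replicate 1 and by 1.34 without mutant replicate 2. Fits without an array have 1 residual degree of freedom and take the lone array to vary like the other group. With a replicate block 2 members (CIT2, YAT2) and 2 companion genes (ALD3, MDH2) were among the 32 of 4576 genes that passed. The members were chosen with this comparison in view, so their passing in any setting gives no support for a difference. The replicate numbers do not pair the cultures by any label, and the deviations of same-numbered cultures correlated at 0.04 over genes, so the block is no better founded than the fit without it. The cause of these shifts was not tested.

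The median of the members was 0.22. It ranged from 0.08 without mutant replicate 1 to 0.36 without mutant replicate 2, and was 0.40 with no filter, when AGP2 enters. The wild-type signals of AGP2, 36.3 and 6.7, lay on either side of both mutant signals. Without centring the median of all genes moved to -0.11 and that of the members to 0.11. Of the 31 companion genes named for the ends of their lists, 24 kept their sign in each alternative.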

Other observations

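The genes next to the members on their chromosomes were read by RefSeq gene order. Of 20 protein-coding neighbours 16 were tested, 7 higher and 9 lower, with a median of -0.06, and 0 passed the threshold in limma (3 of the 16 had an unadjusted p under 0.05, against 8.52% of all tested genes). YAT2 lies between PRO3 (-0.30) and GCD11 (-0.14), and the tested neighbour of CIT2, YCP4, differed by 0.15. ATO2 lies beside CIT1 (0.11). ACS1 and YAT1 are both on chromosome I, with 16 and 7 protein-coding genes between them and the nearer chromosome end. FUS3 (-0.54) and RRN6 (-0.59), on either side of ACH1, were the lowest of the neighbours, and YLR152C (0.63), beside ACS2, the highest.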
